A study of Mus musculus with 6 samples.

Results

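Expression of 35 genes of fatty acid oxidation, ketone body metabolism and lipid uptake was measured in the colon epithelium of Zfp90fl/fl and Zfp90ΔIEC mice. The genes were listed by name for their known roles, with earlier results of these data known, and they are 35 of the 52550 genes with a value in the data. They comprise 3 genes of the carnitine shuttle, 7 acyl-CoA dehydrogenases and electron acceptors, 7 later mitochondrial and auxiliary enzymes, 3 peroxisomal enzymes, 2 ketone body enzymes, 2 enzymes of fatty acid activation, 3 genes of uptake and binding, 4 genes of lipoprotein assembly, and 4 genes of lipid droplets, PPAR targets and their coactivator.

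Long-chain fatty acids enter cells with the help of transporters such as CD36, are bound by fatty acid binding proteins, and are activated to acyl-CoA. The carnitine shuttle carries them into mitochondria, where each turn of beta-oxidation removes an acetyl unit and passes electrons to the respiratory chain through electron transfer flavoprotein, and very long chains are first shortened in peroxisomes. Colonocytes burn fatty acids as a main fuel, above all butyrate made by gut bacteria, they form ketone bodies from acetyl-CoA, and nuclear receptors of the PPAR family drive many of these genes.

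The study compared 3 Zfp90fl/fl samples, labelled Control, with 3 Zfp90ΔIEC samples, labelled cKO. The mice were male C57BL/6 of 6 to 8 weeks at the start, and both groups carried the floxed Zfp90 allele. In Zfp90ΔIEC mice a Cre driven by the Villin promoter, active in intestinal epithelial cells, deletes Zfp90, a gene for a zinc finger protein, and the controls were littermates without that deletion. Every sample came from a mouse given azoxymethane (AOM), a colon carcinogen, at 10 mg/kg, followed after 5 days by 3 cycles of 7 days of 2% dextran sulfate sodium (DSS) in the drinking water, a compound that injures the colon lining, and 14 days of plain water, with the end at day 80. The study's methods give another DSS concentration and another age than these sample labels. There was no untreated group, so the values describe the genotypes after AOM-DSS only. The epithelium was released from the colon with EDTA and DTT. According to the study the genotypes were housed apart after weaning, and cage and genotype cannot be told apart. The labels give replicate numbers but no animal for each sample, and p-values measure the spread between these samples.

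Values are FPKM, fragments per kilobase of transcript and per M mapped fragments, a level that can be compared between genes. The steps between low values gave an estimate of 26.4 to 29.2 M fragments per library. Zfp90 was at 0.630, 0.490 and 0.569 FPKM in Zfp90fl/fl and at 0.0846, 0.195 and 0.166 FPKM in Zfp90ΔIEC, so that the groups did not overlap in the deleted gene. For 2 Zfp90ΔIEC samples the genotype label carries another gene number, and both had Zfp90 in the low range. Distal colon markers were present in all libraries, with the sum of Hoxa13, Hoxb13 and Hoxd13 between 68.1 and 101 FPKM. Of 8 markers of small-intestinal absorptive enterocytes, 4 (Sis, Lct, Apoc3 and Gata4) lay below the filter on low values. The other 4, Rbp2, Alpi, Fabp6 and Anpep, passed it, with means of 13.2, 10.0, 6.05 and 1.47 FPKM over all libraries.

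A response element of PPAR dimers is a direct repeat of AGGTCA with a spacer of 1 base, and promoters of the 35 genes were read for it because several of them are textbook PPAR targets. RefSeq promoter windows (GRCm38.p6, 250 bases before to 50 bases after a gene start) were given for 31 of the 35 genes, the exceptions being Acaa2, Acat1, Angptl4 and Decr1. This repeat (AGGTCA, then 1 base of any kind, then AGGTCA), with at most 2 of its 12 fixed letters different and on either strand, was found in 5 of the 31 genes (16.1%), against 1190 of 27025 genes (4.4%) with a window. A single AGGTCA was present in 6 of 31 (19.4%) and in 18.1% of all genes, and this shorter motif is contained in the exact form of the longer one. The 5 matches are shown on the strand of the gene, with the 13 matching bases in capitals. They lie at chr5:17835939-17835967 (minus strand) for Cd36, chr9:55512300-55512328 (minus strand) for Etfa, chr6:71199804-71199832 (plus strand) for Fabp1, chr4:86670264-86670292 (minus strand) for Plin2, and chr9:108662134-108662162 (plus strand) for Slc25a20.
Cd36: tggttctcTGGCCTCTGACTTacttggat
Etfa: gcacacccTTACCTTTGCCCTactcccaa
Fabp1: acaatcacTGACCTATGGCCTatatctga
Plin2: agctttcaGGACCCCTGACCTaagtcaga
Slc25a20: ctgaatgtAGGTGAAAGGTCGgcggagcc
The Fabp1 match differed from the repeat in 1 letter and the other matches in 2. These are matches of letters in a short window and not measured binding sites.

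The 35 genes spanned a wide range of levels in this epithelium. Fabp2, which encodes the intestinal fatty acid binding protein, was far above all others at 168 to 456 FPKM, and its lowest library exceeded the highest library of the next gene. Cpt1a, Acadl, Etfa, Acadvl, Acaa2, Etfb and Acads followed with means of 72.8 to 82.9 FPKM over the 6 libraries, and neighbours in this order had overlapping ranges. Hadh (64.6 FPKM) closed this upper tier, with a range that lay entirely above that of Bdh1 (50.7 FPKM). At the other end 6 genes were below the filter of at least 1 FPKM in at least 3 libraries, namely Cd36, Fabp1, Apoa1, Apoa4, Mttp and Angptl4. The mitochondrial enzymes of oxidation were thus abundant, whereas 3 of the 4 genes of lipoprotein assembly among the 35 were barely detected. In bulk epithelium fewer cells of a type and less RNA per cell cannot be told apart.

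**Figure D1:**
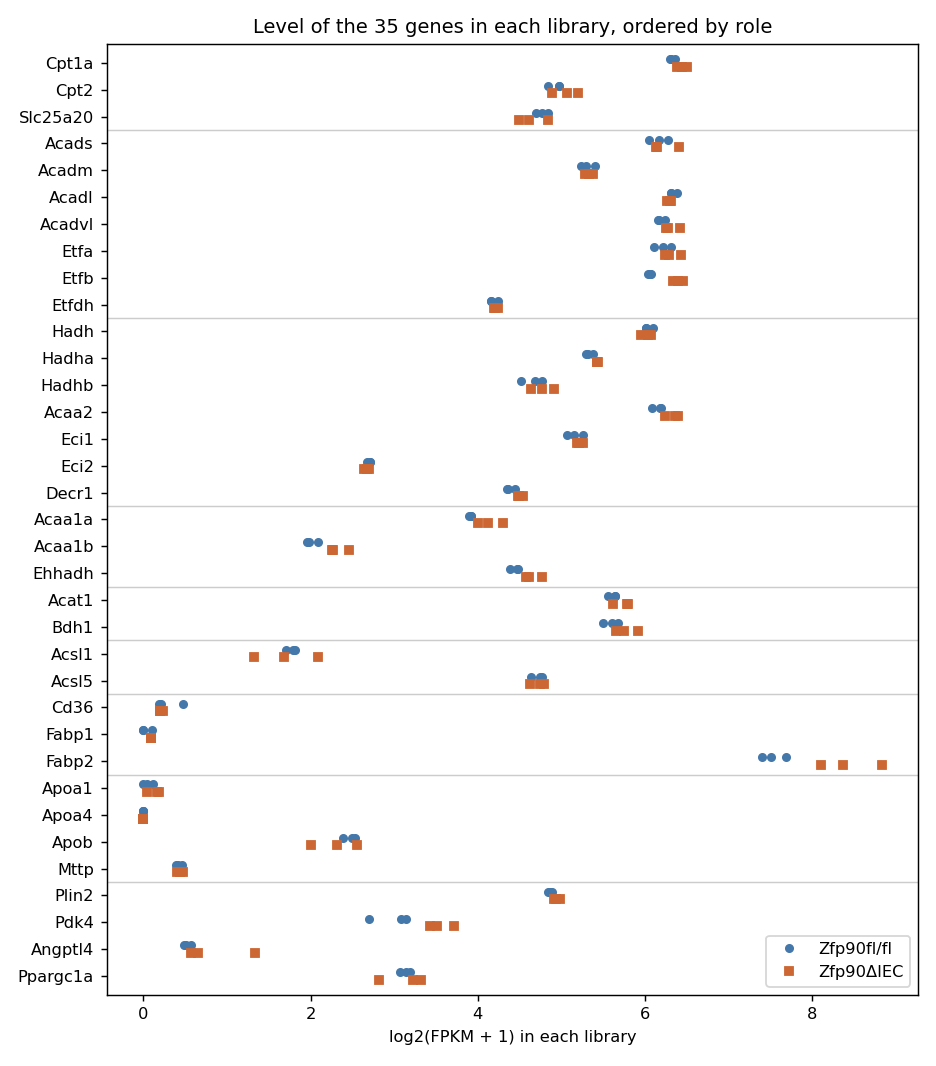
Level of each of the 35 genes on the log2(FPKM + 1) scale in the 3 Zfp90fl/fl libraries (circles) and the 3 Zfp90ΔIEC libraries (squares), ordered by role with lines between roles. Fabp2 stands at the right with the groups apart, the mitochondrial enzymes lie close together in both groups, and Cd36, Fabp1, Apoa1, Apoa4 and Mttp lie near 0.

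To ask whether these genes differed between genotypes, log2(FPKM + 1) was compared with limma over all 11564 genes that passed the filter, 29 of the 35 among them, and p-values were adjusted over all of them by the Benjamini-Hochberg method. None of the 29 passed an adjusted p under 0.05, with 0 higher and 0 lower, where 0.199% of all tested genes (23) did, 0.0692% higher and 0.13% lower. The lowest adjusted p among them was 0.0664, for Etfb. At an unadjusted p under 0.05, 7 of the 29 were higher in Zfp90ΔIEC and 0 were lower, beside 14.6% of all tested genes in either direction, 6.56% higher and 8.09% lower. In 12 of the 29 every Zfp90ΔIEC library exceeded every Zfp90fl/fl library and in 0 the reverse held, while 21.3% of all tested genes did not overlap, 8.73% higher and 12.6% lower. Both criteria held together for Etfb, Fabp2, Pdk4, Acaa1b, Ehhadh, Acaa2 and Acaa1a, 7 genes, all higher in Zfp90ΔIEC, where 13.2% of all tested genes met them, 5.91% higher and 7.32% lower. With median ratio scaling this number was 11, and among all genes with an unadjusted p under 0.05 the share that was higher went from 44.8% to 59.2%.

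The median log2 fold change, on the log2(FPKM + 1) scale that understates the change of low genes, was 0.11 over the 29 genes and -0.02 over all genes tested. It ranged from -0.18 for Apob to 0.91 for Fabp2, and was above 0 in 22 of the 29 genes (75.9%), against 42.8% of all genes. Of the 7 genes, Acaa2 had no promoter window, and 0 of the other 6 held the PPAR repeat described above. As 4.4% of all genes with a window held it, a count of 0 in 6 genes says little. Sites more than 250 bases before a gene start were not searched.

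**Figure D2:**
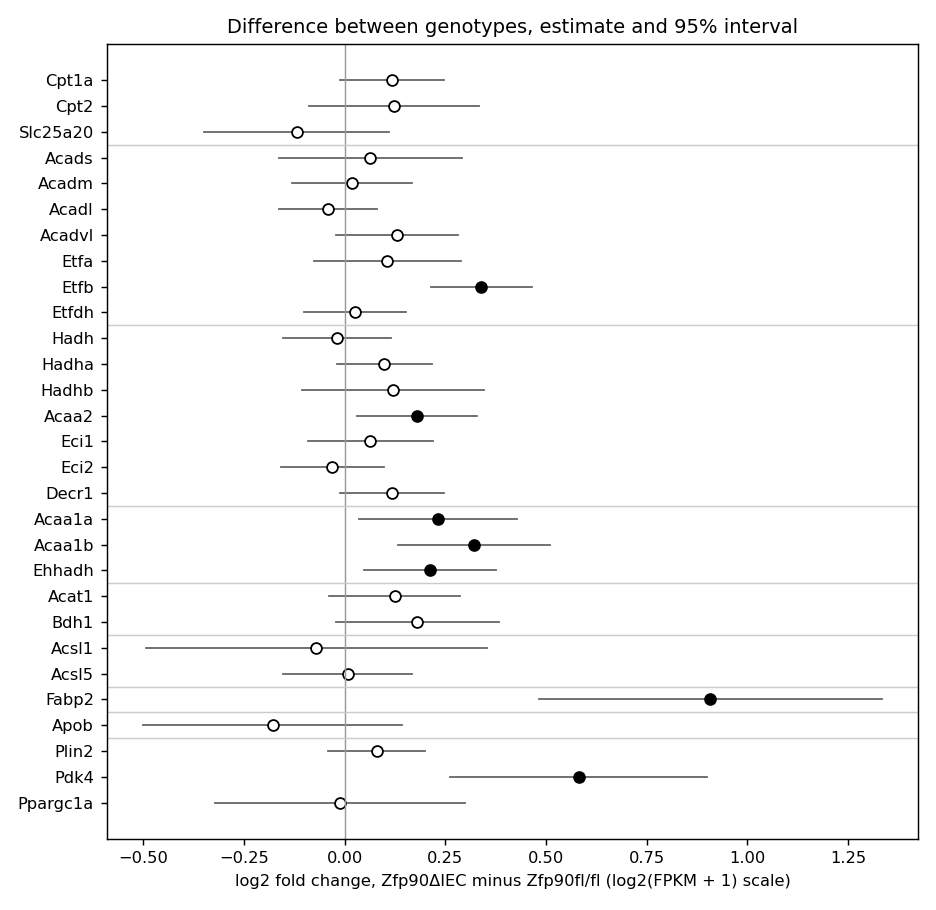
Log2 fold change, Zfp90ΔIEC minus Zfp90fl/fl, on the log2(FPKM + 1) scale with its 95% interval from limma for the 29 tested genes, ordered by role. Filled circles mark the 7 genes with an unadjusted p under 0.05 and no overlap between the groups. All of them lie to the right of 0, between 0.18 and 0.91, and most mitochondrial enzymes lie within 0.15 of 0.

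The carnitine shuttle differed little. Cpt1a encodes carnitine palmitoyltransferase 1A, the gatekeeper of long-chain entry into mitochondria, and was at 78.9, 81.6 and 78.0 FPKM in Zfp90fl/fl and 82.9, 86.5 and 89.7 FPKM in Zfp90ΔIEC. The groups did not overlap, but the means (79.5 ± 1.89 and 86.4 ± 3.39 FPKM, mean ± SD, n = 3 each) differed by only 8.66%, with a log2 fold change of 0.12 (95% interval -0.01 to 0.25, adjusted p = 0.385, limma). Cpt2, which encodes the enzyme that hands the acyl group back to CoA inside the mitochondrion, had 27.6, 30.5 and 30.5 FPKM against 35.8, 32.5 and 28.8 FPKM. Its groups overlapped, with a log2 fold change of 0.12 (SE, the standard error, 0.0893, adjusted p = 0.578, limma), or 0.05 without Zfp90ΔIEC replicate 1. Slc25a20, which encodes the carnitine-acylcarnitine carrier between both enzymes, had a lower mean in Zfp90ΔIEC, at 21.5 to 27.8 FPKM against 25.1 to 27.8 FPKM, with overlap.

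Among the acyl-CoA dehydrogenases and their electron acceptors, 1 gene stood apart. Etfb (ENSMUSG00000004610, chr7:43444083-43457800, GRCm38) encodes the beta subunit of electron transfer flavoprotein, which takes electrons from all acyl-CoA dehydrogenases. It was at 64.8, 65.8 and 66.7 FPKM in Zfp90fl/fl and at 80.3, 86.8 and 83.3 FPKM in Zfp90ΔIEC. The groups were well separated and tight within each genotype, at 65.7 ± 0.941 and 83.5 ± 3.29 FPKM (n = 3 each). The mean was 27.0% higher in Zfp90ΔIEC, with a log2 fold change of 0.34 (SE 0.0531, 95% interval 0.21 to 0.47, adjusted p = 0.0664, limma). Etfb shares 617 exonic bases on the same strand with Gm45233, which was listed at mean levels of 0.412 and 0.373 FPKM.

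The partners of Etfb did not show a difference of that size. Etfa, which encodes the alpha subunit of the same flavoprotein, had 68.2, 73.6 and 78.8 FPKM against 75.0, 85.3 and 77.2 FPKM, with overlapping groups and a log2 fold change of 0.11. Etfdh, which encodes the oxidoreductase that passes the electrons on to ubiquinone, had means of 17.2 ± 0.596 and 17.6 ± 0.361 FPKM (n = 3 each) with overlap, and a log2 fold change of 0.03. The dehydrogenases for short (Acads), medium (Acadm) and long chains (Acadl) overlapped between genotypes, with log2 fold changes of 0.06, 0.02 and -0.04, and the interval of Acadl ran from -0.16 to 0.08. Acadvl, which encodes the very-long-chain enzyme at the inner membrane, was at 70.3 to 74.9 FPKM and 75.6 to 84.7 FPKM, without overlap, and its log2 fold change was 0.13 (SE 0.0642, adjusted p = 0.412, limma). Acadvl shares 1151 exonic bases with Dvl2 on the opposite strand, which was low at 1.51 and 1.42 FPKM.

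Of the later mitochondrial steps, the thiolase gene had the largest difference. Acaa2, whose product cleaves acetyl-CoA off the chain, was at 66.9, 72.0 and 71.7 FPKM in Zfp90fl/fl and at 83.2, 81.0 and 74.8 FPKM in Zfp90ΔIEC. The groups did not overlap, although the third Zfp90ΔIEC library lay close to the control range. The mean went from 70.2 ± 2.85 to 79.7 ± 4.34 FPKM (n = 3 each), 13.5% higher, with a log2 fold change of 0.18 (SE 0.0630, 95% interval 0.03 to 0.33, adjusted p = 0.271, limma). The trifunctional protein, which carries out the last steps for long chains, was near its control level for both subunits. Hadha, its alpha subunit, had 38.4 to 40.7 FPKM against 42.1 to 42.6 FPKM without overlap, a log2 fold change of 0.10, and Hadhb, its beta subunit, had 21.9 to 26.3 FPKM against 24.0 to 29.2 FPKM with overlap, a log2 fold change of 0.12. Hadh, which encodes the short-chain hydroxyacyl-CoA dehydrogenase, had a log2 fold change of -0.019 with an interval of -0.15 to 0.11, and it was 0.0087 with median ratio scaling. The enoyl-CoA isomerase genes Eci1 and Eci2 overlapped between groups at 0.06 and -0.03, and Decr1, whose product prepares polyunsaturated chains for oxidation, was at 0.12 without overlap.

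Summed over the 17 mitochondrial genes of these 3 roles, the level was 813 ± 24.9 FPKM in Zfp90fl/fl and 870 ± 23.5 FPKM in Zfp90ΔIEC (n = 3 each), 6.97% higher. The libraries lay at 786 to 835 FPKM and 854 to 897 FPKM, without overlap. The sum of the 7 dehydrogenases and electron acceptors, in which abundant genes weigh most, was 418 ± 14.1 and 451 ± 21.2 FPKM.

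The peroxisomal enzymes were the only role with more than 1 gene in which every gene met both the unadjusted p and the overlap criterion. Acaa1b (ENSMUSG00000010651, chr9:119148023-119157093), which encodes a peroxisomal thiolase, was at 2.93, 3.24 and 2.87 FPKM in Zfp90fl/fl and at 3.80, 4.49 and 3.78 FPKM in Zfp90ΔIEC. All Zfp90ΔIEC libraries were above the controls, with a mean 33.4% higher (3.02 ± 0.198 and 4.02 ± 0.403 FPKM, n = 3 each) and a log2 fold change of 0.32 (SE 0.0795, 95% interval 0.13 to 0.51, adjusted p = 0.139, limma).

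Acaa1a (ENSMUSG00000036138, chr9:119339676-119350299), the more abundant thiolase gene, was at 14.1, 13.9 and 14.2 FPKM against 18.8, 16.5 and 15.0 FPKM. The controls were nearly equal and the Zfp90ΔIEC libraries spread above them, with the first of them the highest. Its log2 fold change was 0.23 (SE 0.0828, 95% interval 0.04 to 0.43, adjusted p = 0.275, limma), and it was 0.15 without Zfp90ΔIEC replicate 1. The pair is similar in sequence, with 360 of the 1663 windows of 100 bases (21.6%) in Acaa1a transcripts found identically in Acaa1b, so reads may have been divided between them and both values are uncertain. Acaa1a also shares 290 exonic bases with Myd88 on the opposite strand, a gene at 15.1 and 13.5 FPKM.

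Ehhadh (ENSMUSG00000022853, chr16:21761287-21787807) encodes the peroxisomal bifunctional enzyme, which hydrates and oxidises the shortened chain. It was at 21.3, 19.9 and 21.2 FPKM in Zfp90fl/fl and at 26.3, 23.0 and 23.5 FPKM in Zfp90ΔIEC, without overlap and again with the first Zfp90ΔIEC library the highest. The mean was 20.8 ± 0.797 against 24.3 ± 1.80 FPKM (n = 3 each), 16.7% higher, and the log2 fold change was 0.21 (SE 0.0690, 95% interval 0.05 to 0.38, adjusted p = 0.243, limma). The sum of the 3 peroxisomal genes was 37.1 to 38.4 FPKM in the controls and 42.3 to 48.9 FPKM in Zfp90ΔIEC, a mean 19.0% higher.

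**Figure D3:**
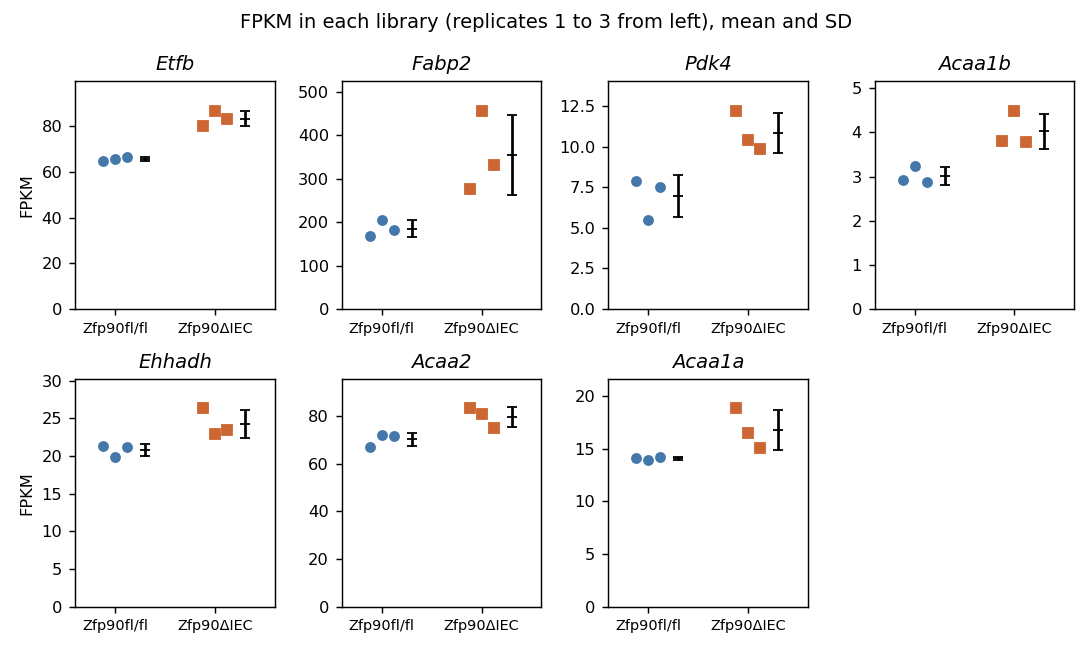
FPKM in each library for the 7 genes with an unadjusted p under 0.05 and no overlap between the groups, with Zfp90fl/fl as circles, Zfp90ΔIEC as squares, and the mean and SD of each group (n = 3) as bars. Every Zfp90ΔIEC point lies above every Zfp90fl/fl point, the Zfp90fl/fl libraries of Etfb and Acaa1a lie close together, and the second library is the highest of each group for Fabp2.

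The ketone body enzymes overlapped between genotypes. Bdh1, which encodes the dehydrogenase that interconverts acetoacetate and beta-hydroxybutyrate, was at 44.2, 48.0 and 50.2 FPKM in Zfp90fl/fl and at 49.4, 59.6 and 53.1 FPKM in Zfp90ΔIEC. Only the lowest Zfp90ΔIEC library fell within the control range, and the log2 fold change was 0.18 (SE 0.0851, 95% interval -0.02 to 0.38, adjusted p = 0.394, limma), and it was 0.11 without Zfp90ΔIEC replicate 2. Acat1, the mitochondrial acetoacetyl-CoA thiolase, had 46.1 to 49.1 FPKM against 48.2 to 54.8 FPKM and a log2 fold change of 0.12.

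Of the genes of fatty acid activation among the 35, both overlapped between genotypes, and other synthetase genes are described with the wider list. Acsl5, an acyl-CoA synthetase gene, was at 23.8, 25.7 and 26.3 FPKM against 23.8, 26.7 and 25.8 FPKM, with a log2 fold change of 0.0073 and an interval of -0.15 to 0.17. Acsl1, a second synthetase gene, was low and variable in Zfp90ΔIEC, at 3.25, 2.21 and 1.51 FPKM around control values of 2.44, 2.52 and 2.26 FPKM. Its log2 fold change was -0.07 (SE 0.179, adjusted p = 0.889, limma).

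Fabp2 (ENSMUSG00000023057, chr3:122895072-122899506) had the largest fold change of the 29 genes. Its product binds long-chain fatty acids in the cytosol of absorptive enterocytes. It was at 168, 205 and 181 FPKM in Zfp90fl/fl and at 275, 456 and 331 FPKM in Zfp90ΔIEC. Every Zfp90ΔIEC library exceeded every control, and the second library was the highest of each group. The mean went from 185 ± 19.1 to 354 ± 92.5 FPKM (n = 3 each), 91.6% higher, with a log2 fold change of 0.91 (SE 0.179, 95% interval 0.48 to 1.33). The adjusted p was 0.0995 (limma, Benjamini-Hochberg), and it lay between 0.050 and 0.257 over the alternatives without passing the threshold in any of them.

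Markers of mature colonocytes were also higher in Zfp90ΔIEC on average. Of 7 markers 6 had a higher mean in Zfp90ΔIEC and 4 (Car1, Slc26a3, Aqp8 and Guca2a) did not overlap, and the summed level was 5809 to 7681 FPKM in the controls and 8485 to 12704 FPKM in Zfp90ΔIEC, with 0 of the 7 past the adjusted threshold. Car1, which encodes the abundant carbonic anhydrase of the colonocyte, was at 4033, 5628 and 4458 FPKM against 6349, 10059 and 7206 FPKM. Like Krt20 and Guca2a, it was highest in the same library of each group as Fabp2. Divided by Car1 in the same library, Fabp2 was at 41.6, 36.5 and 40.6 FPKM per 1000 FPKM of Car1 in Zfp90fl/fl and at 43.3, 45.3 and 46.0 in Zfp90ΔIEC, a log2 difference of 0.18. The log2 difference of the ratio was 0.32 against Aqp8, 0.39 against Slc26a3, 0.42 against Guca2a, 0.62 against Car4, 0.74 against Krt20 and 0.95 against Ceacam1. All 7 ratios were on average higher in Zfp90ΔIEC, with overlapping groups for Aqp8, Slc26a3 and Car4. They were chosen after the values were seen, and dividing by a marker that is itself higher in Zfp90ΔIEC makes the difference smaller by construction. The part of colonocytes in the difference of Fabp2 was not tested.

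**Figure D4:**
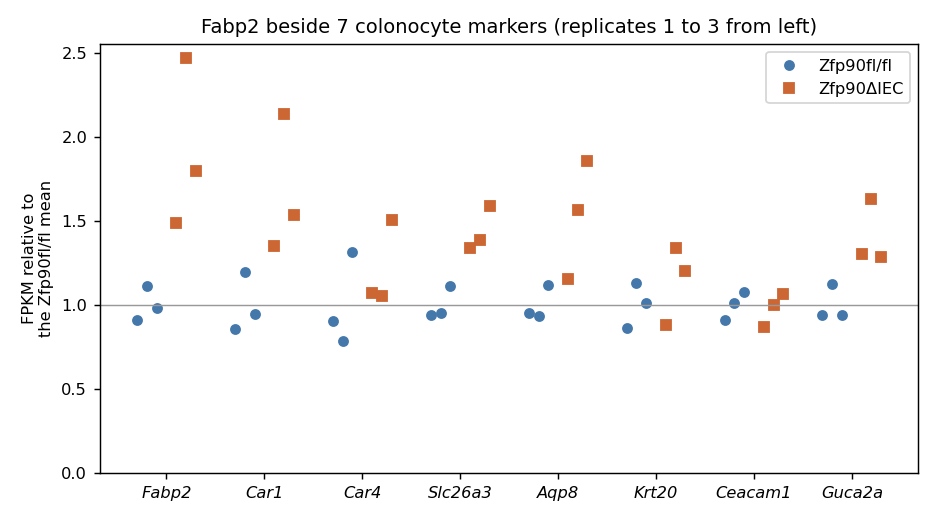
FPKM of Fabp2 and of 7 colonocyte markers in each library, divided by the Zfp90fl/fl mean of the gene, with replicates 1 to 3 from left, circles for Zfp90fl/fl and squares for Zfp90ΔIEC. Fabp2, Car1 and Krt20 have the same order of libraries within each genotype, and the groups overlap for Car4, Krt20 and Ceacam1.

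Other uptake genes were at the limit of detection. Cd36, the fatty acid translocase gene, was at 0.159, 0.389 and 0.135 FPKM against 0.143, 0.173 and 0.143 FPKM. Fabp1, which encodes the liver-type binding protein, reached at most 0.0701 FPKM, an estimated 1 fragment per library, and was listed at 0 in 2 of the controls. A difference in Fabp1 was not detectable at this depth. The sum of the 8 small-intestinal markers was 29.3 to 31.2 FPKM against 24.2 to 39.3 FPKM, with overlapping groups.

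Lipoprotein assembly was sparse. Apob, which encodes the scaffold protein of chylomicrons, was at 4.26, 4.80 and 4.64 FPKM in Zfp90fl/fl and 3.03, 3.99 and 4.90 FPKM in Zfp90ΔIEC, with overlap and a log2 fold change of -0.18 (SE 0.136, adjusted p = 0.596, limma). This value rested largely on the first Zfp90ΔIEC library, being -0.03 without it and -0.31 without the third. Mttp, whose product loads lipid onto it, was at 0.313 to 0.373 FPKM against 0.319 to 0.392 FPKM. Apoa1 was at 0 to 0.0864 FPKM against 0.0296 to 0.141 FPKM, and Apoa4 was listed at 0 in all 6 libraries.

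In the role of lipid droplets, PPAR targets and coactivator, Pdk4 (ENSMUSG00000019577, chr6:5483351-5496309) had the largest log2 fold change of the tested genes. Its product, a pyruvate dehydrogenase kinase, shuts pyruvate out of the citric acid cycle when fat is burnt. It was at 7.86, 5.48 and 7.51 FPKM in Zfp90fl/fl and at 12.2, 10.4 and 9.82 FPKM in Zfp90ΔIEC. The groups did not overlap, and the mean went from 6.95 ± 1.28 to 10.8 ± 1.24 FPKM (n = 3 each), 55.7% higher. The log2 fold change was 0.58 (SE 0.135, 95% interval 0.26 to 0.90, adjusted p = 0.131, limma).

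Other PPAR targets did not share this size. Plin2, which encodes the coat protein of lipid droplets, was at 28.1, 27.6 and 28.6 FPKM against 29.1, 29.6 and 30.7 FPKM, without overlap and with a log2 fold change of 0.08 (adjusted p = 0.531, limma). Angptl4, which encodes a secreted inhibitor of lipoprotein lipase, was at 0.490, 0.394 and 0.423 FPKM against 1.52, 0.480 and 0.573 FPKM, so its higher mean rested on the first Zfp90ΔIEC library. Ppargc1a, the gene of the coactivator PGC-1alpha, was at 7.82, 8.15 and 7.38 FPKM against 9.03, 6.04 and 8.35 FPKM, with a log2 fold change of -0.012 that was 0.0096 with quantile normalization and 0.013 after median ratio scaling. The PPAR receptor genes themselves overlapped between the genotypes, with log2 fold changes of -0.13 for Ppara, 0.08 for Ppard and 0.12 for Pparg.

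Beyond the 35, a list of 159 other genes of these pathways held 113 that were tested, and their median log2 fold change was 0.03. Of these, 0 were higher and 1 was lower past the adjusted threshold, where 0.0692% and 0.13% of all tested genes did. At an unadjusted p under 0.05, 12 of the 113 were higher and 4 lower, beside 6.56% and 8.09% of all tested genes. By sublist, where a gene may stand in more than 1, the median was 0.05 for fatty acid oxidation (35 tested), -0.00 for ketone bodies and short-chain acids (16 tested), 0.11 for uptake, activation and binding (18 tested), 0.04 for triglycerides, droplets and lipoproteins (25 tested), and -0.05 for PPAR regulators and targets (21 tested).

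The gene past the threshold was Apoe, which encodes apolipoprotein E, a lipid carrier made in quantity by macrophages. It was at 3.22, 3.58 and 4.76 FPKM in Zfp90fl/fl and at 1.32, 1.44 and 1.43 FPKM in Zfp90ΔIEC, without overlap. Apoe fell by 1.01 on the log2 scale (SE 0.119, adjusted p = 0.0434, limma), and the adjusted p lay between 0.0275 and 0.126 over the alternatives. It did not pass the threshold in 7 of the 11 alternatives. Leukocyte markers were also lower on average, 6 of 6, in Zfp90ΔIEC, with a summed level of 6.52 to 7.97 FPKM against 2.92 to 3.81 FPKM. Lyz2, a macrophage and neutrophil lysozyme gene, had a log2 fold change of -0.80. The part of leukocytes in the level of Apoe was not tested.

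Among the other named genes of the list, those with the lowest p in each direction, Acsf2, which encodes a medium-chain acyl-CoA synthetase of mitochondria, was at 69.5, 67.5 and 66.5 FPKM against 90.2, 97.6 and 85.4 FPKM. The groups were apart, with a log2 fold change of 0.42 (SE 0.0641, adjusted p = 0.0664, limma). Apoc2, which encodes the activator of lipoprotein lipase, had means of 1.59 ± 0.227 and 3.35 ± 0.646 FPKM (n = 3 each), a log2 fold change of 0.74 and an adjusted p of 0.0720 (limma). Abcd3, a transporter gene of the peroxisomal membrane, and Acsl3, an acyl-CoA synthetase gene, had log2 fold changes of 0.41 and 0.35 without overlap and adjusted p-values of 0.140 and 0.143 (limma).

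In the other direction Slc5a8, which encodes the sodium-coupled transporter of butyrate and other monocarboxylates, was at 98.7, 97.8 and 92.5 FPKM in Zfp90fl/fl and at 82.3, 79.9 and 80.1 FPKM in Zfp90ΔIEC. The libraries were tightly grouped and apart, with a log2 fold change of -0.25 (SE 0.0522, adjusted p = 0.115, limma). Agpat2, whose product makes phosphatidic acid for triglycerides, was at 30.4, 40.3 and 33.7 FPKM against 29.4, 17.2 and 13.9 FPKM, with a log2 fold change of -0.82 and an adjusted p of 0.222 (limma). Pdk1, a second pyruvate dehydrogenase kinase gene, had a log2 fold change of -0.18, opposite in sign to that of Pdk4, and Acad10 had -0.15.

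Markers of adipocytes, endothelial cells and fibroblasts were low. Adipocyte markers summed to 1.82 to 2.75 FPKM against 2.03 to 4.29 FPKM, mostly from Cidec, and Adipoq, Plin1, Lep and Fabp4 lay below the filter. Cidec, a lipid droplet gene, was at 1.29, 1.58 and 1.51 FPKM against 1.59, 3.77 and 2.62 FPKM, without overlap and with a log2 fold change of 0.53 (adjusted p = 0.313, limma). Endothelial markers summed to 0.411 to 0.872 FPKM and 0.651 to 0.748 FPKM, and fibroblast markers to 0.201 to 0.398 FPKM and 0.109 to 0.620 FPKM, with overlap for both. Goblet cell markers had a higher mean in Zfp90ΔIEC for 4 of 4 genes, and their sum, 902 to 1200 FPKM against 1167 to 1602 FPKM, was 35.3% higher with overlap. Muc2, the main mucin gene of goblet cells, was at 440, 444 and 431 FPKM against 1010, 593 and 465 FPKM, without overlap and with a log2 fold change of 0.57 (adjusted p = 0.368, limma). Among stem and transit cell markers the proliferation gene Mki67 rose (22.6, 21.8 and 22.6 FPKM against 29.1, 30.2 and 30.7 FPKM, adjusted p = 0.0478, limma). The rest of that list, Lgr5, Olfm4 and Ascl2, lay below the filter and overlapped between the groups. Their log2 fold changes in the fit without a filter were 0.005, -0.03 and 0.03.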

How the data were processed

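RNA of colon epithelium from 6 samples was sequenced with a strand-specific kit as paired-end reads of 150 bases. The authors deposited an FPKM per gene and sample, without counts. The study's methods name TopHat, Cuffdiff and a human genome, whereas the submitters' processing notes name STAR 2.5, Cuffnorm, DESeq 1.22.1 and mm9, and which made the files is not given in the sources used here, nor is the use of strand. Of 52550 Ensembl identifiers, 52403 matched a symbol in the GRCm38 annotation (GENCODE), which also gave the coordinates printed here.

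On the log2(FPKM + 1) scale, limma 3.58.1 (R 4.3.3, moderated with a trend on mean level) was fitted to the 11564 genes that reached 1 FPKM in 3 or more samples, and p-values were adjusted by the Benjamini-Hochberg method with a threshold of 0.05. Intervals are 95%. The test was first tried on simulated data. Samples were grouped by title. The members and the gene and marker lists were chosen with earlier results of these data known. Full statistics are given for genes past the threshold, for those with an unadjusted p under 0.05 and no overlap, and for the largest difference in each role, and of the other pathway genes the 5 of lowest p in each direction are named. Ppara, Ppard and Pparg were added for their place in the pathway after their values were seen. The result of a gene named by this rule is not reported here.

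Depth was estimated from the steps between low values, of which 61.2% to 68.1% lay within 0.1 fragments of a whole number, too few for a count test. Alternatives were leaving out each sample, a replicate block, scaling by median ratios, quantile normalization, testing all genes unfiltered and a pseudocount of 0.1, and for Fabp2 division by each colonocyte marker, chosen after seeing the data. Promoters came from RefSeq windows. Python 3.11.15 with numpy 2.4.6, pandas 2.3.3, scipy 1.17.1 and matplotlib 3.10.9 served for the other steps.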

Additional observations from a re-analysis of the deposited data

How the results depend on the processing

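None of the 29 tested genes passed the adjusted threshold in any of 11 alternatives. The 7 genes with an unadjusted p under 0.05 and no overlap kept their sign in all of them. Where groups do not overlap, leaving out a sample, the other pseudocount, the replicate block or no filter cannot reverse the sign. For these alternatives the kept sign followed from how the 7 genes were selected. The number of genes meeting both criteria was 11 with median ratio scaling and 5 to 10 when a sample was left out. The median over the 29 genes was then 0.08 to 0.12. The number of all genes past the threshold, 23, was 13 with a pseudocount of 0.1 and 15 without a filter, and 10 to 21 when a sample was left out, with 10 for Zfp90fl/fl replicate 2. With the replicate block it was 47, of which 18 were among the 23, and 0 of the 29 genes passed. Deviations of same-numbered samples correlated at 0.194, 0.110 and 0.0782, not all above 0.1, so the numbers were not taken as pairs. The sign changed in 6 of the 29 genes. Ppargc1a was at 0.0096 with quantile normalization, at 0.013 with median ratio scaling and at -0.11 to 0.14 when a sample was left out, and Hadh was at 0.0087 with median ratio scaling and at -0.043 to 0.013. Leaving out a sample gave -0.025 to 0.12 for Acads, -0.019 to 0.064 for Acadm, -0.034 to 0.053 for Acsl5 and -0.27 to 0.12 for Acsl1. Apoe was no longer past the threshold without the filter (adjusted p = 0.123, limma), with quantile normalization (adjusted p = 0.0504, limma), or when any sample but Zfp90fl/fl replicate 3 was left out. The cause of these changes was not tested. Genes with an FPKM near 0 rest on few fragments, whereas the 6 genes whose sign changed had means of 2.37 to 72.8 FPKM over all libraries.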
